A study of Mus musculus with 4 samples.

Results

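The cytochrome P450 genes of the Cyp2 cluster on mouse chromosome 7 were followed in whole brain of 50-week-old mice, across a change of diet and between 2 inbred strains. The genes were Cyp2a4, Cyp2a5, Cyp2a12, Cyp2b9, Cyp2b10, Cyp2b19, Cyp2f2, Cyp2g1 and Cyp2s1. They were found by matching the accession of each array probe to a gene, which gave 13 of the 41174 probes and 9 of the 16543 genes that could be named. Cyp2a4 had 3 probes, Cyp2b9 and Cyp2g1 had 2 each and the other 6 genes had 1 each. The group was chosen by its measured log2 ratios in these 4 arrays, in which Cyp2a5, Cyp2g1 and Cyp2f2 moved together, so the ratios are given as a description and no test was applied to them.

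Total RNA from whole brain was hybridised to 4 Agilent two-colour arrays on 1 slide. The first group was SAMP8, a senescence-accelerated strain, fed whale meat extract (WME) in its diet. The second was SAMP8 on the low-safflower oil (LSO) control diet, and the third was SAMR1, the senescence-resistant strain used as its control, on the same LSO diet. The labels give AKR/J with possible outbreeding to an unknown line as the genetic background, diets were given from 24 weeks of age for 26 weeks, and behavioural tests preceded brain collection. One pair of arrays set SAMP8 WME against SAMP8 LSO and the other pair set SAMP8 LSO against SAMR1 LSO, each with the dyes exchanged between its 2 arrays. The sources used here do not give the number of mice that made up an RNA. With 1 RNA per group the differences have no replicate check, and the SD printed with a ratio is over the 2 dye orientations of the same RNAs. Both comparisons contain the SAMP8 LSO RNA, so a value of that RNA enters both with opposite sign. The values of the comparisons are therefore set side by side for each gene, without a measure of their similarity.

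Cytochrome P450 enzymes are haem proteins of the endoplasmic reticulum that insert oxygen into lipophilic substrates with electrons from NADPH through P450 reductase. The Cyp2 cluster of rodents holds the 2a, 2b, 2f, 2g and 2s subfamilies, which arose by gene duplication and metabolise steroids, odorants, drugs and inhaled toxicants. In rodents Cyp2a5, Cyp2g1 and Cyp2f2 are known for high expression in the olfactory mucosa of the nose, Cyp2a5 and the 2b enzymes also for expression in liver, and brain is generally a tissue of low P450 content.

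The promoters of the genes that differed are shown, among them those of the near-identical copies Cyp2a4 and Cyp2a5. Probe and transcript sequences were not compared, so the likeness of the promoters does not show how well a probe tells the copies apart. RefSeq windows of 300 bases (250 before the start site and 50 after it, build GRCm38.p6) were matched by symbol for 8 of the 9 genes, and Cyp2g1 had none. The windows of Cyp2a4 and Cyp2a5 had the same base at 294 of 299 aligned positions (98.3%). Capitals mark the 5 bases that differ, and in Cyp2f2 they mark AGGTCA, a short motif of nuclear receptor sites that is not a full site.
Cyp2a4, chr7:26306942-26307241, plus strand: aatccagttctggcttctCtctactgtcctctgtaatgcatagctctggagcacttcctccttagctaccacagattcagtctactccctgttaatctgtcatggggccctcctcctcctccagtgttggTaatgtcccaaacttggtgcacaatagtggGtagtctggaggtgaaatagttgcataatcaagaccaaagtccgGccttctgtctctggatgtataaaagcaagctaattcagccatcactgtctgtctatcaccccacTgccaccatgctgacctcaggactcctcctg
Cyp2a5, chr7:26835089-26835388, plus strand: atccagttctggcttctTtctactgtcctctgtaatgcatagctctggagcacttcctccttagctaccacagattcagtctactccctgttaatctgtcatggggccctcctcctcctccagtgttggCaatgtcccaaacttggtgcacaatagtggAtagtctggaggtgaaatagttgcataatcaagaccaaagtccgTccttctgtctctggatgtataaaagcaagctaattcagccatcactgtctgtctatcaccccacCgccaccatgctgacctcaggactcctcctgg
Cyp2f2, chr7:27119705-27120004, plus strand: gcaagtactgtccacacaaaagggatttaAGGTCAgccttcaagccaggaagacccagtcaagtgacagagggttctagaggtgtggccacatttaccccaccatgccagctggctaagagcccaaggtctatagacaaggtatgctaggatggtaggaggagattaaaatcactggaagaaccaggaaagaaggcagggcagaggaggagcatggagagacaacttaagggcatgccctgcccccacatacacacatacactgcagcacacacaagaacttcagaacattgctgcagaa

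Counted from 1 at the 5′ end of the Cyp2a5 window, with the Cyp2a5 base first, the differences were T18C, C130T, A160G, T204G and C269T. Cyp2a12 had the same base as Cyp2a5 at 173 of 263 aligned positions (65.8%), and the windows of Cyp2b9, Cyp2b10 and Cyp2b19 were 76.5% to 79.8% identical to each other. The difference C130T lies in TTGGC, a short motif that is not a full nuclear factor I (NFI) site. The Cyp2a5 window holds it at position −125 from the start site. The promoter of the rat gene Cyp2a3 is known to depend on an NFI element in olfactory mucosa. A stretch of 24 bases around this position is set out with the differing base in capitals.
Cyp2a5, chr7:26835208-26835231, plus strand: ccagtgttggCaatgtcccaaact
Cyp2a4, chr7:26307062-26307085, plus strand: ccagtgttggTaatgtcccaaact

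In all, 6 motifs were searched on both strands of the windows, and they were chosen with these sequences in view. TTGGC was in the windows of Cyp2a5, Cyp2a12, Cyp2b9, Cyp2b10 and Cyp2b19, against 46.7% of 32851 RefSeq promoters of the same length. The palindromic NFI site, which contains TTGGC on each strand, was in none of the 8 windows and in 0.0365% of all promoters. A TATA box, TATAAA, was in Cyp2a4, Cyp2a5 and Cyp2a12, against 13.6% of all promoters. The nuclear receptor motif AGGTCA was in Cyp2a4, Cyp2a5, Cyp2b9, Cyp2b19 and Cyp2f2, against 16.3% of all promoters. In Cyp2a4 and Cyp2a5 it lay after the start site, at positions 31 and 30, and is not in capitals above. The palindrome bound by early B-cell factors and the E box CACGTG were in none of the 8 windows, against 0.904% and 7.15% of all promoters. The windows of the genes that differed thus shared no searched motif that was absent from the windows of the others, and no match shows that a factor binds.

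Of the 9 genes, 6 were measured: Cyp2a4, Cyp2a5, Cyp2b19, Cyp2f2, Cyp2g1 and Cyp2s1 had a probe well above background on both arrays of each pair. A probe counted as measured when the same RNA of a pair was well above background on both of its arrays. The 8 probes that passed did so in every one of the 8 channels of the 4 arrays, so none passed through its higher group alone. The probes of Cyp2a12 and Cyp2b10, one Cyp2b9 probe and one Cyp2g1 probe were well above background in no channel. The other Cyp2b9 probe was above background in 4 of 8 channels and counted as measured in neither pair.

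On the arrays, 81.4% to 85.6% of spots were well above background and none was saturated. Array ratios are in log2 units after background correction and within-array normalisation, and a gene was called when its ratio reached 1.5-fold, or 0.585 in log2 and with the same sign, on each of the 2 arrays of a pair. Over all genes and unnamed transcripts measured, 0.0300% were called lower and 0.0562% higher in SAMP8 WME than in SAMP8 LSO (0.0862% in all), with a median log2 ratio of 0.0038. In SAMP8 LSO against SAMR1 LSO, 0.969% were called higher and 0.494% lower (1.46% in all), with a median of −0.0067. All 5 neuron, 5 astrocyte and 5 oligodendrocyte markers were measured in both pairs and none was called. Of the astrocyte markers 4 were below 0 on both arrays of the diet pair (median −0.11), as were 17.6% of all genes measured. Gfap, the astrocyte filament gene, had −0.11 ± 0.03 there and 0.55 ± 0.22 in the strain pair, and Aqp4, the water channel of astrocyte endfeet, had −0.10 ± 0.06 and 0.41 ± 0.10, where the list's median was 0.0034. The part of astrocytes in the Cyp2 ratios was not tested. Fewer cells of a type and less RNA per cell cannot be told apart in such RNA.

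In SAMP8 WME brain Cyp2g1 and Cyp2a5 were lower than in SAMP8 LSO brain, by 2.04-fold and 1.65-fold. These were 2 of the 6 measured genes, where 0.0300% of all genes were called lower, and 0 were higher. The median log2 ratio of the 6 was −0.49, and 4 of them were below 0 on both arrays, as were 17.6% of all genes measured. In SAMP8 LSO brain 4 of the 6 (Cyp2a4, Cyp2a5, Cyp2f2 and Cyp2g1) were 2.20-fold to 2.90-fold higher than in SAMR1 LSO brain. The share called higher over all genes was 0.969%. None of the 6 was lower there, the median was 1.25 and all 6 were above 0 on both arrays, as were 23.9% of all genes measured. These contrasts were used to choose the genes, so nothing is read from the counts against the shares called over all genes. Cyp2b19 and Cyp2s1 were near 0 in both pairs.

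**Figure D1:**
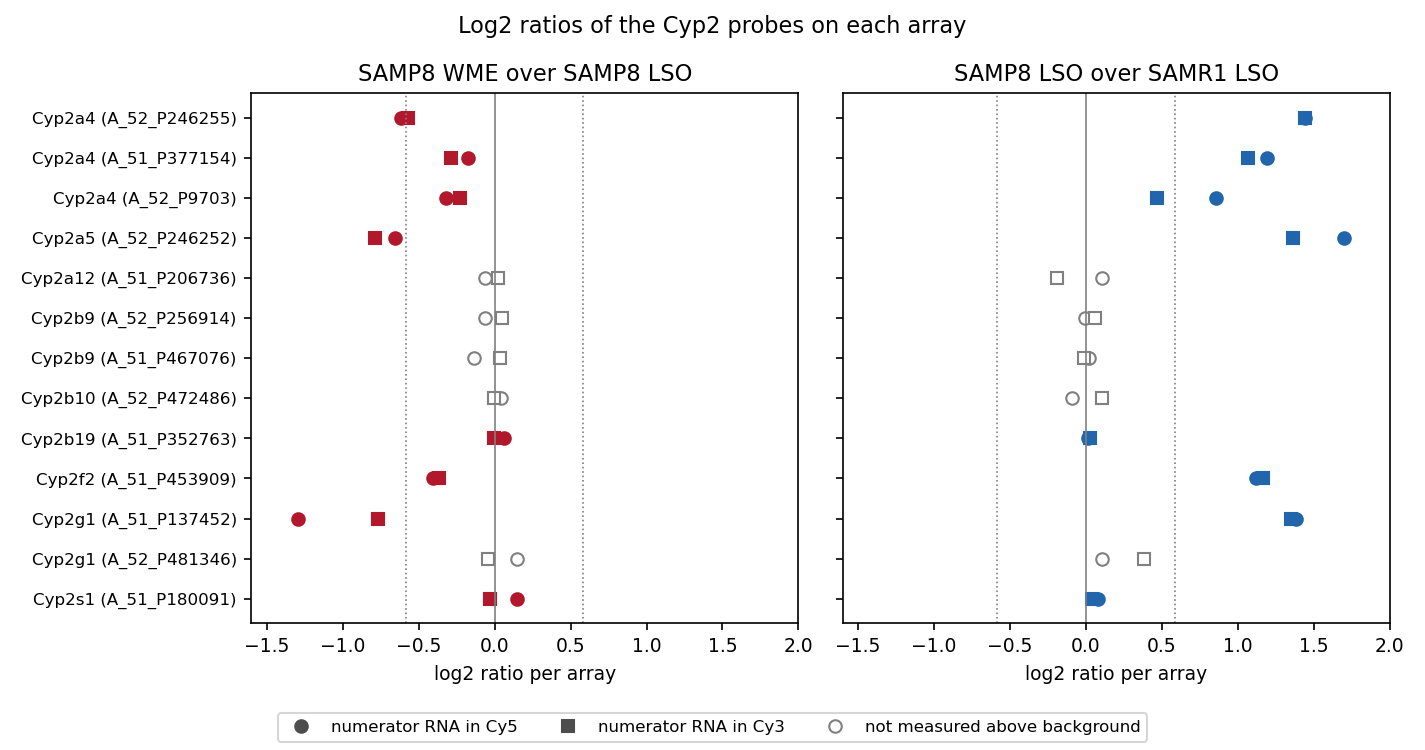
Log2 ratio of each of the 13 probes on each array, with SAMP8 WME over SAMP8 LSO on the left and SAMP8 LSO over SAMR1 LSO on the right. Circles and squares are the 2 dye orientations, open symbols are probes not measured in that pair, and dotted lines mark 1.5-fold. The Cyp2a4, Cyp2a5, Cyp2f2 and brighter Cyp2g1 probes lie below 0 on the left and above 0 on the right, and Cyp2b19 and Cyp2s1 lie within 0.15 of 0.

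Cyp2g1 encodes an enzyme known mainly from olfactory mucosa, where it hydroxylates sex steroids. Its brighter probe had normalised intensities of 175 and 209 in SAMP8 WME RNA, against 429 and 355 in SAMP8 LSO RNA on the same 2 arrays. These are per-channel values after normalisation, in arbitrary units that include the offset of 50 added in background correction. The LSO channels were higher than the WME channels on both arrays, and the ranges did not overlap. The log2 ratios were −1.29 and −0.77, with a mean of −1.03 ± 0.37 (SD over 2 dye orientations). On the other pair the probe read 415 and 429 in SAMP8 LSO RNA, against 159 and 168 in SAMR1 LSO RNA. Every SAMP8 LSO channel again lay above the RNA beside it, and the log2 ratios of 1.38 and 1.35 gave a mean of 1.37 ± 0.02. Cyp2g1 had the largest diet ratio of the 6 genes, and as normalised here also the largest spread between the dye orientations. With processed signals its spread was the smallest of the 6, at 0.04.

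The second Cyp2g1 probe was not well above background in any channel. Its normalised intensities were 78.7 to 102 units in all RNAs, close to the floor set by the offset. No ratio is read from it, and the values of Cyp2g1 rest on the brighter probe.

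Cyp2a5 encodes the mouse coumarin 7-hydroxylase, which also activates nitrosamines and oxidises nicotine. Its probe had 536 and 552 normalised intensity units in SAMP8 WME RNA, against 842 and 954 in SAMP8 LSO RNA. The ranges did not overlap, and the log2 ratios of −0.65 and −0.79 averaged −0.72 ± 0.10. Between strains the probe had 1032 and 812 units in SAMP8 LSO RNA, against 317 and 315 in SAMR1 LSO RNA. Both arrays put SAMP8 LSO higher, by 1.70 and 1.37 in log2, with a mean of 1.53 ± 0.24. This was the largest strain ratio among the 6 genes as normalised here, and with processed signals Cyp2g1 was above it, at 1.95 against 1.80. Its smaller diet ratio, 0.65 in size, lay just inside the threshold of 0.585.

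Cyp2a4 encodes the testosterone 15-alpha-hydroxylase of mouse liver and kidney. Its brightest probe had 385 and 389.5 units in SAMP8 WME RNA, against 589 and 577 in SAMP8 LSO RNA. The ranges were apart, with log2 ratios of −0.61 and −0.57 and a mean of −0.59 ± 0.03. The smaller of these lay just outside the threshold, so Cyp2a4 was not called in the diet pair although its mean was 1.51-fold lower in SAMP8 WME. Between strains the same probe had 647 and 549 units in SAMP8 LSO RNA, against 238 and 202 in SAMR1 LSO RNA. The log2 ratio was 1.44 on each array, a mean of 1.44 ± 0.0028 and the smallest spread of the strain ratios.

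The other Cyp2a4 probes kept the direction with smaller values. Probe A_51_P377154 had a diet log2 ratio of −0.23 ± 0.08 and a strain log2 ratio of 1.13 ± 0.09, and it reached 1.5-fold on both arrays of the strain pair. Probe A_52_P9703 had −0.27 ± 0.07 and 0.66 ± 0.27, and of its strain ratios of 0.85 and 0.47 only one reached the threshold. Its SAMR1 LSO channels read 224 and 335 units, with the higher value on the array where the SAMP8 LSO channel was also higher, at 464 against 404 units on the other array. The 3 probes thus differed in strain ratio by more than the SD of the brightest one. Probe sequences were not used here, and how far RNA of Cyp2a5 or another copy reached each Cyp2a4 probe, or the reverse, was not tested. The values of Cyp2a4 and Cyp2a5 are uncertain as values of a single gene for that reason.

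Cyp2f2 encodes the enzyme that bioactivates naphthalene in club cells of the mouse airway. Its probe had 240.0 and 273 units in SAMP8 WME RNA, against 317 and 351 in SAMP8 LSO RNA. The ranges were apart but close, and the log2 ratios of −0.40 and −0.36, mean −0.38 ± 0.03, did not reach 1.5-fold. Between strains it had 359 and 307 units in SAMP8 LSO RNA, against 165 and 137 in SAMR1 LSO RNA. Here the log2 ratios were 1.12 and 1.16, with a mean of 1.14 ± 0.03.

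The size of these ratios depended on the signal used. With an offset of 10 in place of 50, the diet log2 ratio of Cyp2g1 was −1.21 and the strain log2 ratio of Cyp2f2 was 1.43. From the processed signals of the scanner software, which differ in background subtraction and dye normalisation as well, the diet log2 ratio of Cyp2g1 was −1.64, or 3.12-fold lower in SAMP8 WME. With the same signals the strain ratios of Cyp2f2, Cyp2g1 and Cyp2a5 were 3.34-fold, 3.86-fold and 3.48-fold, against 2.20-fold, 2.58-fold and 2.90-fold above. The directions were the same.

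**Figure D2:**
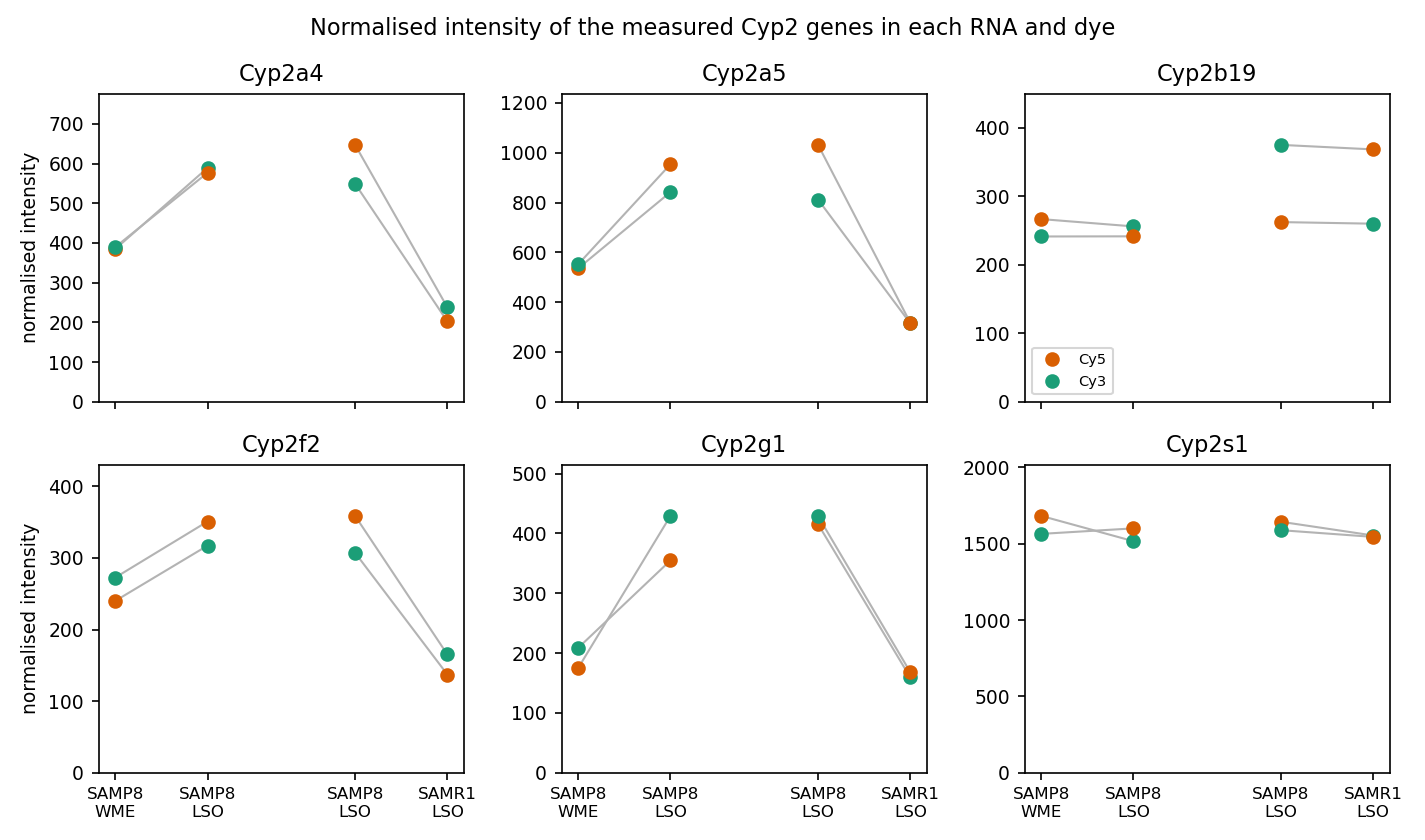
Normalised intensity (arbitrary units, linear axis from 0) of the brightest probe of each measured gene, by RNA and dye, with a line joining the channels of 1 array. The left side of each panel is SAMP8 WME against SAMP8 LSO and the right side SAMP8 LSO against SAMR1 LSO. For Cyp2a4, Cyp2a5, Cyp2f2 and Cyp2g1 the SAMP8 LSO channels are above all others, and for Cyp2b19 and Cyp2s1 the lines are nearly flat.

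Cyp2s1 encodes an enzyme of epithelia outside the liver that is inducible by dioxin. Its probe had 1682 and 1564 units in SAMP8 WME RNA, against 1516 and 1600 in SAMP8 LSO RNA, and these ranges overlapped. The log2 ratios of 0.15 and −0.03 averaged 0.06 ± 0.13. In the strain pair the units were 1643 and 1588 in SAMP8 LSO RNA, against 1554 and 1545 in SAMR1 LSO RNA. The mean log2 ratio there was 0.06 ± 0.03, far from the threshold although the ranges were apart.

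Cyp2b19 encodes an arachidonic acid epoxygenase of epidermal keratinocytes. Its probe had 267 and 241 units in SAMP8 WME RNA, against 256 and 242 in SAMP8 LSO RNA, a mean log2 ratio of 0.03 ± 0.04. Between strains it had 262 and 375 units in SAMP8 LSO RNA, against 260.0 and 368 in SAMR1 LSO RNA. Both channels of the second array were high together, so the ratio of 0.02 ± 0.01 was hardly touched. Epidermal marker genes were also not called, with 4 of 5 probed genes measured and median log2 ratios of 0.02 in the diet pair and 0.0037 in the strain pair.

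Cyp2b9 and Cyp2b10 encode enzymes of mouse liver, and Cyp2b10 is known for induction by phenobarbital through the receptor CAR. Both genes gave intensities of 82.7 to 116 over their 3 probes in all RNAs. Cyp2a12, a steroid hydroxylase of mouse liver, gave 80.8 to 92.1. These values lay near the floor set by the offset, and no fold is given for them. The related gene Cyp2b13, which lies in the cluster and was not among the 9, was above background in all 8 channels. It had log2 ratios of −0.10 ± 0.05 in the diet pair and −0.16 ± 0.08 in the strain pair.

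In the RefSeq gene order the cluster runs from Cyp2s1 through Cyp2b10, Cyp2b13, Cyp2b9 and Cyp2a4, then past a group of Nlrp and vomeronasal receptor genes to Cyp2b19, Cyp2g1, Cyp2a5, Cyp2a12 and Cyp2f2. Cyp2g1 and Cyp2a5 are neighbours, while Cyp2a4 lies apart from its near-identical copy with Cyp2b19 and Cyp2g1 between them. The order was used only to place genes, because the array files name another build. Cyp2b13 and Cyp2b19, with small ratios, lie on either side of Cyp2a4. None of the 5 nearest probed genes on either side was called, with strain log2 ratios of −0.20 (Mia) to 0.14 (Tgfb1) and diet log2 ratios of −0.06 (Hnrnpul1) to 0.06 (Tgfb1). Between the members, Vmn1r185 had −0.07 ± 0.07 and −0.01 ± 0.10. Nlrp9a was measured in the diet pair alone, at 0.0075 ± 0.0019, and Nlrp9c and Nlrp4a were measured in neither.

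**Figure D3:**
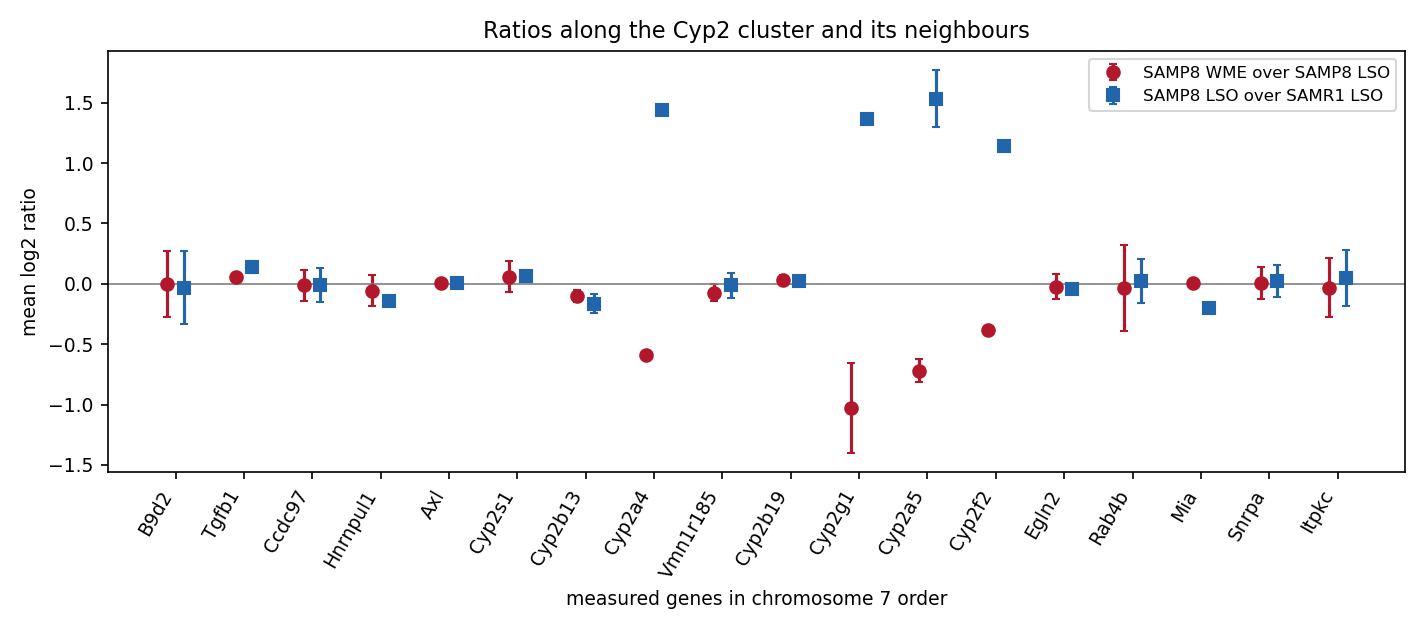
Mean log2 ratio of each measured gene in the chromosome 7 gene order, for SAMP8 WME over SAMP8 LSO (circles) and SAMP8 LSO over SAMR1 LSO (squares), with bars for the SD over 2 dye orientations. Cyp2a4, Cyp2g1, Cyp2a5 and Cyp2f2 stand apart from 0 in opposite directions, while the flanking genes lie between −0.20 and 0.14.

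Adding the log2 ratios of both pairs gave an indirect ratio of SAMP8 WME over SAMR1 LSO. All 6 measured genes were above 0 in it, with a median of 0.55. Cyp2a4 at 0.85 ± 0.03 and Cyp2f2 at 0.76 ± 0.06 were called higher in SAMP8 WME, by 1.80-fold and 1.69-fold, where 0.811% of all genes were called higher, 0.398% lower and 1.21% either way. Cyp2a5 had a like mean of 0.81 ± 0.33 but a wide spread between the sums, and Cyp2g1 had 0.34 ± 0.35, a mean smaller than its SD. The spread depended on how the arrays were summed. With sums that hold SAMP8 LSO in 1 dye, chosen after seeing the data, Cyp2a5 had an SD of 0.14 and was called. Cyp2g1 then had an SD of 0.40 and was not called. With processed signals the Cyp2g1 sum was 0.31 ± 0.10, larger than its SD, and the single sums of the main setting were 0.59 and 0.09. In order of mean level, SAMP8 LSO was highest and SAMR1 LSO lowest for Cyp2a4, Cyp2a5, Cyp2f2 and Cyp2g1, with SAMP8 WME between them. For Cyp2g1 the normalised channel levels of SAMP8 WME (175 and 209) and SAMR1 LSO (159 and 168), read on different arrays, were apart. Its processed signals overlapped, at 79.1 to 89.0 in SAMP8 WME RNA and 54.6 to 79.7 in SAMR1 LSO RNA. Whether the step exceeded the spread of the sums depended on the signal used. For Cyp2b19 (0.05 ± 0.03) and Cyp2s1 (0.12 ± 0.16) no step of the order was as large as 1.5-fold.

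The genes whose 4 array ratios were nearest to the mean of Cyp2a5, Cyp2g1 and Cyp2f2 were found by Euclidean distance among 14608 named genes measured in both pairs. Cyp2a5, Cyp2g1 and Cyp2f2 were chosen for moving together on these arrays and make up the mean, so their own nearness to it was set in advance. They ranked 4, 5 and 9. Cyp2a4 ranked 1 at a distance of 0.238, and how far it shares signal with Cyp2a5, a part of the mean, was not tested. Cyp2s1 and Cyp2b19 ranked 5501 and 6501. The 5 nearest genes outside the cluster were Egr2 (0.319), S100a8 (0.362), Fos (0.534), S100a9 (0.555) and Nr4a1 (0.559), on chromosomes 10, 3, 12, 3 and 15. Egr2 and S100a8 ranked 2 and 3, before Cyp2a5 and Cyp2g1, and all 5 were nearer than Cyp2f2 (0.564). The pattern was thus not particular to the cluster. Egr2, Fos and Nr4a1 are immediate early genes that neurons switch on with activity, and S100a8 and S100a9 encode calcium-binding proteins of neutrophils. Egr2 had log2 ratios of −0.65 ± 0.04 in the diet pair and 1.15 ± 0.05 in the strain pair. S100a8 had −0.80 ± 0.12 and 1.11 ± 0.02. Likeness over 4 arrays that share 1 RNA says nothing of a common source or control.

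The marker genes of tissues known for these enzymes were read beside them. Of 10 markers of olfactory sustentacular cells and Bowman glands, the cells in which Cyp2a5 and Cyp2g1 are known to be abundant, 8 had a probe and 6 were measured. None of the 6 was called. In the diet pair 4 were below 0 on both arrays, against 17.6% of all genes. The other 2, Aqp5 and Muc5b, were above 0 on both, against 20.6%. In the strain pair 4 were above 0 on both arrays, against 23.9% of all genes. Aqp5 and Cyp1a2 had strain means of −0.02 ± 0.22 and −0.01 ± 0.08. These counts of sign include ratios close to 0, such as −0.015 ± 0.010 for Cyp1a2 in the diet pair. Their medians were −0.04 and 0.12, against 0.0038 and −0.0067 over all genes. Cbr2, a carbonyl reductase, had −0.17 ± 0.12 and 0.51 ± 0.09, and Ugt2a1, the olfactory glucuronosyltransferase, had −0.09 ± 0.10 and 0.19 ± 0.0030. The odorant-binding proteins Obp1a and Obp2a were not well above background in any channel. The summed processed signal of the list was 1074 to 1261 in SAMP8 WME RNA and 1201 to 1338 in SAMP8 LSO RNA. In the strain pair it was 1115 to 1415 in SAMP8 LSO RNA and 841 to 1117 in SAMR1 LSO RNA. The part of nasal tissue in the Cyp2 ratios was not tested.

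Olfactory sensory neuron markers were measured for 10 of 11 genes and none was called, with a median of 0.03 in the strain pair. The largest ratios were those of S100a5, at 0.19 ± 0.27 and 0.32 ± 0.20, and Adcy3, at 0.02 ± 0.14 and −0.15 ± 0.03. All 8 olfactory bulb markers were measured and none was called, with medians of 0.12 and −0.24. Of the 8, 6 were below 0 on both arrays of the strain pair, as were 26.7% of all genes measured. Doc2g had 0.11 ± 0.23 and −0.40 ± 0.22, and Cdhr1 had 0.15 ± 0.20 and −0.35 ± 0.20, the diet means being smaller than their SDs. Respiratory epithelium markers were measured for 8 of 10 genes with 0 called and medians of 0.04 and 0.01, and Reg3g was not above background. Bpifa1, at 0.15 ± 0.20 and 0.35 ± 0.03, and Bpifb1, at 0.12 ± 0.03 and −0.15 ± 0.07, had the largest ratios of this list. In SAMR1 LSO RNA Bpifa1 was not well above background, so it was at least 1.28-fold higher in SAMP8 LSO. These values give each tissue's markers beside the Cyp2 ratios, and their part in those ratios was not tested.

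Liver markers, measured for 10 genes in the diet pair and 9 in the strain pair, had 1 call: the apolipoprotein gene Apoa2 was higher in SAMP8 LSO than in SAMR1 LSO by 1.095 ± 0.099 in log2. Kidney markers had the largest medians of the marker and pathway lists, with the other sign from the Cyp2 genes in each pair. Of 9 measured, 7 were higher in SAMP8 WME than in SAMP8 LSO (Kap, Slc34a1, Dnase1, Klk1, Fbp1, Cyp4b1 and Acsm2) and 4 were lower in SAMP8 LSO than in SAMR1 LSO (Kap, Dnase1, Cyp4b1 and Acsm2). Over all genes 0.0562% were called higher in the diet pair and 0.494% lower in the strain pair. The medians of the kidney markers were 1.35 and −0.62. Their summed processed signal was 6165 to 6986 in SAMP8 WME RNA and 2090 to 2284 in SAMP8 LSO RNA. In the strain pair it was 1891 to 2319 in SAMP8 LSO RNA and 2388 to 2748 in SAMR1 LSO RNA. Whether the RNAs differed in other tissue carried with the brain was not tested.

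**Figure D4:**
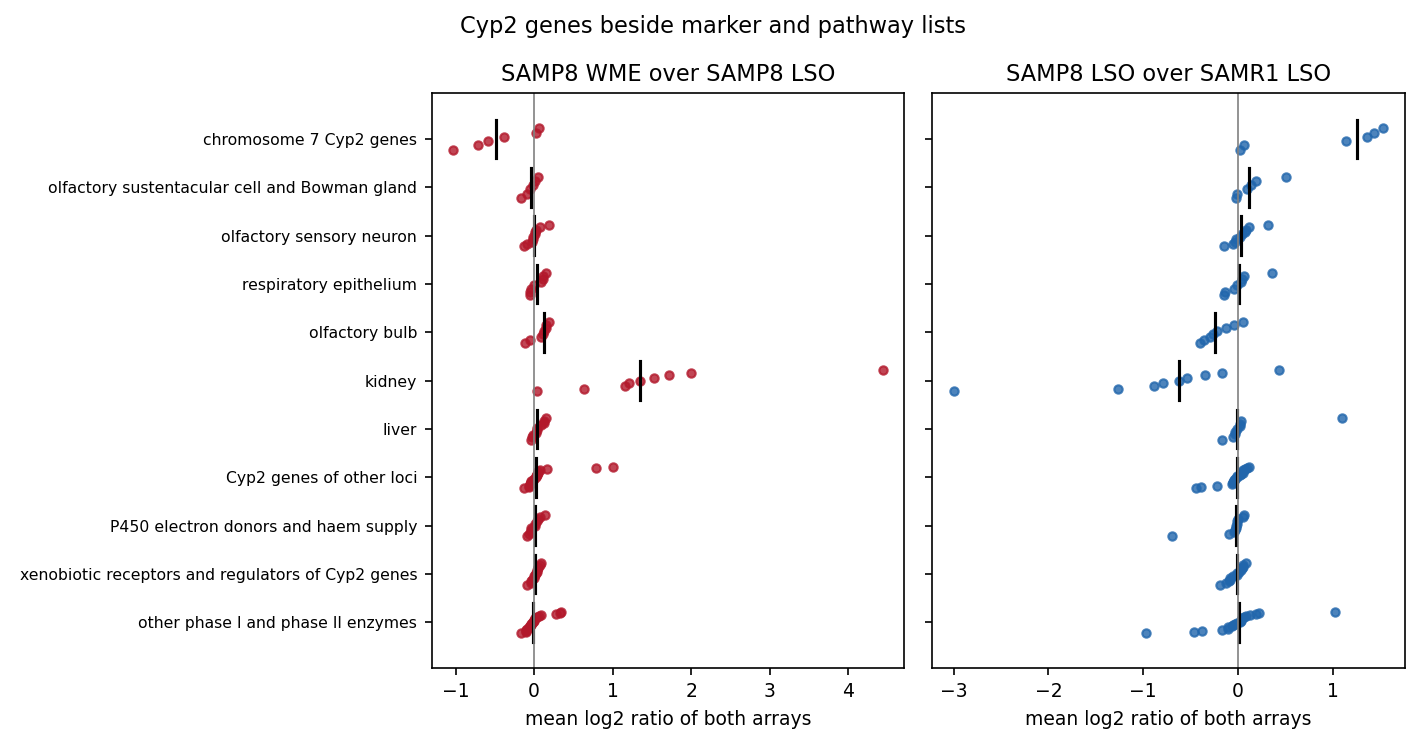
Mean log2 ratio of each measured gene of the chromosome 7 Cyp2 group and of the marker and pathway lists, with SAMP8 WME over SAMP8 LSO on the left and SAMP8 LSO over SAMR1 LSO on the right. Each point is a gene and the black bar is the list median. The Cyp2 medians are −0.49 and 1.25, the kidney medians are 1.35 and −0.62, and the other medians lie between −0.24 and 0.12.

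Of 36 Cyp2 genes of other loci, 25 had a probe and 19 were measured, with medians of 0.02 in the diet pair and −0.01 in the strain pair. Cyp2e1, the ethanol-inducible enzyme, was at least 2.01-fold higher in SAMP8 WME than in SAMP8 LSO, where its probe was not well above background, and 0 were called in the strain pair. The electron donors and the haem supply of P450 enzymes were measured for all 11 genes. None was called in the diet pair, and Fech, which inserts iron to form haem, was lower in SAMP8 LSO than in SAMR1 LSO at −0.70 ± 0.01. Of 15 xenobiotic receptors and regulators of Cyp2 genes, 14 were measured and 0 were called in either pair, with medians of 0.01 and −0.01. The largest ratios among them were those of Cebpa, at −0.04 ± 0.40 and −0.19 ± 0.39, and Ahr, the dioxin receptor, at 0.01 ± 0.02 and −0.12 ± 0.05.

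Other phase I and phase II enzymes, which oxidise or conjugate foreign compounds beside the P450 enzymes, were measured for 20 of 23 genes. None was called in the diet pair. In the strain pair the glutathione transferase Gstm2 was higher in SAMP8 LSO at 1.03 ± 0.01, and the flavin monooxygenase Fmo2 was lower at −0.97 ± 0.13. The median of the list was −0.02 in the diet pair and 0.01 in the strain pair.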

How the data were processed

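Raw and processed spot intensities of 4 two-colour arrays were used. The submitters' processing notes name Agilent Feature Extraction 11.0.1.1. Processed intensities in the deposited files are background-subtracted and dye-normalised, per the file headers, and their log10 ratios are red over green. The deposited series table holds log2 ratios, which matched those of red over green from processed signals on every array (largest difference 5e-09) and were not turned for dye. Its column medians were −0.018, 0.012, 0.0036 and 0.017.

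Median intensities were background-corrected with normexp (offset 50) and loess-normalised within arrays in limma 3.58.1 (R 4.3.3), with controls at weight 0. Outlier spots (105 to 123 per array) were left out, and spots of a probe were averaged. Per-channel levels followed Aquantile scaling. Ratios were turned for dye and averaged. No test was run, because a dye swap of the same RNAs is 1 replicate, and the number of arrays limits the precision. The steps were tested on simulated data, whose noise was set in advance and not taken from the spread of these arrays.

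Probes were named through RefSeq (GRCm38.p6) accessions (23374) or symbols (10), and 17790 stayed unnamed. A gene was represented by its brightest probe. For a dimmer RNA above background on neither array, the fold was bounded from below, using the larger of the probe's own signal and the weakest signal above background. The text names all 9 members, list genes called in either comparison or otherwise up to 2 with the largest ratios, the 5 nearest patterns, and neighbouring genes. Members, lists and motifs were chosen with earlier results of these data known. Alternatives (10, and 1 added later) covered the signal, centring, offset, filters, probe and call rules, and each array alone.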

Additional observations from a re-analysis of the deposited data

How the results depend on the processing

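The strain comparison had 4 of the 6 measured Cyp2 genes higher in SAMP8 LSO under all settings run, and leaving out either array gave 4 to 4. A call needs both arrays, so leaving out an array can keep or raise a count in any comparison but cannot lower it. In the diet comparison 2 were lower in SAMP8 WME. This count was 1 (Cyp2a5) when the median over a gene's probes was used, because the dim Cyp2g1 probe then enters, and 0 under a 2-fold rule. Leaving out either array gave 2 to 3, and processed signals and an offset of 10 gave 3, adding Cyp2a4. The indirect count of 2 was 0 under the 2-fold rule and 3 to 3 with either array left out. It was 3, adding Cyp2a5, with processed signals, median centring, an offset of 10, and sums that hold SAMP8 LSO in 1 dye, a setting chosen after seeing the data. Single-gene ratios moved by more than their SD in 10 of 60 diet, 12 of 60 strain and 6 of 66 indirect recalculations. These totals include settings that could not move a ratio that far. The call rule and the background filters leave a ratio unchanged, and leaving out an array shifts it by less than its SD. Sums that hold SAMP8 LSO in 1 dye keep the same mean. None of the called ratios changed sign. Cyp2b19 fell below 0 with processed signals, at −0.04 in the strain ratio and −0.04 in the indirect one. Without array 2 of the diet pair the ratio of Cyp2g1 was −1.29, and without array 1 it was −0.77.

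Over all genes the diet comparison had 15 higher and 8 lower. These became 63 and 40 with processed signals, 7 and 2 under the 2-fold rule, 15 and 62 on the second array alone, and 82 and 20 on the first alone. The strain comparison had 261 and 133, which became 465 and 291, 101 and 38, 323 and 239, and 389 and 176 in that order of settings. The indirect ratio had 214 and 105, which became 397 and 216, 80 and 23, 389 and 475, and 610 and 287. Without loess the median of all diet ratios was 0.066.

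Each ratio compares the 2 RNAs of the same array. The labels give no replicate numbers, and each pair of arrays is a dye swap of the same 2 RNAs. Pairing over replicate animals was therefore not possible. Cyp2a12 and Cyp2b10 were above background in no channel and Cyp2b9 in 4 of 8 without counting as measured, so no difference is given for them. For the indirect ratio of Cyp2g1, processed signals gave 0.31 ± 0.10 and the median over probes 0.32 ± 0.20, and the single sums were 0.59 and 0.09.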
